A study of Sus scrofa domesticus with 28 samples.

Results

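Transforming growth factor beta 1 (TGFB1) and transforming growth factor beta 3 (TGFB3), connective tissue growth factor (CTGF, also named CCN2) and endoglin (ENG) were followed through scar formation in pig skin. The genes were taken by name, with every array probe whose RefSeq transcript maps to one of them. This gave 6 of 43603 probes and 4 of the 3216 genes that could be given a symbol: NM_214015 for TGFB1 and NM_214198 for TGFB3 with 2 probes each, and NM_213833 for CTGF and NM_214031 for ENG with 1 probe each. The collagen chain gene COL1A2 (NM_001243655, 1 probe) was measured beside them as a readout of collagen production. TGFB2 was not analysed here.

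TGF-beta ligands are secreted in a latent form, are released by integrins and by thrombospondin, and signal through receptor kinases to SMAD transcription factors. In healing skin they come from platelets, macrophages, fibroblasts and keratinocytes, and they drive collagen synthesis and wound contraction; TGFB1 is linked to scarring, whereas TGFB3 has been studied for its lower tendency to scar. CTGF is a matrix-associated protein that TGF-beta signalling induces in fibroblasts, and endoglin is a TGF-beta co-receptor best known from proliferating endothelial cells.

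The study took 28 skin biopsies from 2 castrated male juvenile red Duroc pigs and hybridised each to a 2-colour Agilent array. Cy5 always marked the biopsy and Cy3 a commercial reference made from pig RNA, so dyes were not swapped. There were 4 control skin biopsies, 1 from each side of each pig, with no scar, pressure or pigmentation label. Early scar was sampled as 4 hyperpigmented ("hyper") and 4 hypopigmented ("hypo") biopsies, all sham-treated. Mid and late scar each had 2 biopsies, 1 per pig, of hyper sham, hyper pressure, hypo sham and hypo pressure. All mid and late pressure biopsies came from the right side and all mid and late sham biopsies from the left, so pressure and side cannot be told apart. Hyper biopsies all carry one further code in their titles and hypo biopsies another, so pigmentation and whatever that code stands for cannot be told apart either. Titles of scar biopsies also hold a number of unstated meaning, which is the same for all 8 early biopsies, higher in mid and highest in late scar. Mid biopsies differ in it among themselves, as do late ones: in late scar 3 of 4 biopsies of pig 49 carry the highest number and 3 of 4 of pig 50 the lowest of that phase, so pig and number partly coincide there. It was not used, and how the wounds were made and on which days the phases fell is not given in the sources used here. With 2 pigs, the p-values reflect how much biopsies varied in these animals alone. Values below are log2 ratios of biopsy to reference; a ratio compares one gene across biopsies and sets no gene's level against another's. The ratio reads whole tissue, so fewer cells of a type and less RNA per cell cannot be told apart.

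Between 31.4% and 55.7% of the probes on an array stood well above background in Cy5, and 18768 features were tested. The probe used for each gene was well above background on 28 of 28 arrays and saturated on none. Skeletal muscle markers stood high in 3 scar biopsies (mean of 8 markers 3.47 to 5.70 on a median-centred log2 scale, against at most 2.03 in the other 25 arrays): late pressure hyper of the right side of pig 49, mid pressure hyper of the right side of pig 49, and early sham hypo of the left side of pig 50. Hypo late biopsies of pig 50 gave the 2 dimmest late arrays (31.4% and 33.9% of probes). Markers of other cells also differed from control skin by limma. For scale, 24.1% of all features were higher and 14.8% lower in early scar, 22.1% and 11.7% in mid scar, and 26.3% and 13.4% in late scar. Keratinocyte markers were lower in 3 of 4 measured in early, 2 of 4 in mid and 3 of 4 in late scar, and adipocyte markers in 5, 4 and 3 of 6. Of 7 T and NK cell markers none passed in early scar, 3 were higher in mid and 4 in late scar. In each phase 1 of 4 pericyte and smooth muscle markers was higher and 1 lower, 1 of 2 platelet markers was higher in early and in mid scar and none in late scar, and none of the 8 skeletal muscle markers passed. Counts of 1 among so few markers lie near the shares of all features. The part of these cells in the values of TGFB1, TGFB3, CTGF and ENG was not tested.

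TGFB1, the ligand most often tied to scarring, was higher than in control skin in all 3 scar phases. Its log2 ratio in control skin was -1.90, -1.39, -1.65 and -1.59. In early scar it ran from -0.60 to 0.24 with a median of -0.44, in mid scar from -1.01 to 0.65 with a median of -0.38, and in late scar from -1.03 to 0.39 with a median of -0.63. Every scar biopsy lay above every control biopsy in each phase. The 4 early hyper biopsies were tightly grouped between -0.47 and -0.43, whereas mid scar was spread widely. Against control, TGFB1 rose by 1.33 ± 0.23 log2 units in early scar (2.52-fold, limma adjusted p = 1.35e-04), by 1.30 ± 0.23 in mid scar (2.46-fold, adjusted p = 3.35e-04) and by 1.10 ± 0.23 in late scar (2.14-fold, adjusted p = 8.33e-04), where ± gives the standard error. A second, dimmer TGFB1 probe, well above background on 21 arrays, gave smaller rises of 0.73, 0.73 and 0.61 with adjusted p = 0.00782, 0.011 and 0.0231. When arrays were centred on their median instead of by loess, which fits a curve over signal brightness, the mid difference was 0.83 (adjusted p = 0.0729) and the late one 0.28 (adjusted p = 0.536), and neither passed.

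TGFB3 rose most in early scar. Its control values were 0.48, 1.17, -0.32 and 1.05, the widest control spread of the ligands. Early scar ran from 2.27 to 3.35 with a median of 2.52, wholly above control. Mid scar ran from 0.68 to 2.71 with a median of 1.85 and late scar from 0.90 to 2.63 with a median of 1.68, and both overlapped control. The rise was 2.0 ± 0.32 log2 units in early scar (3.99-fold, limma adjusted p = 7.28e-05), 1.25 ± 0.32 in mid scar (2.38-fold, adjusted p = 0.0058) and 1.10 ± 0.32 in late scar (2.14-fold, adjusted p = 0.0105). The mid and late calls rested on 1 control biopsy, the left side of pig 50: without it the differences were 0.92 (adjusted p = 0.0502) and 0.77 (adjusted p = 0.0842). The dimmer TGFB3 probe gave 1.25 in early scar (adjusted p = 0.00151). It gave 0.58 in mid scar (adjusted p = 0.114) and 0.49 in late scar (adjusted p = 0.177), which did not pass. Pig 49 alone gave 0.41 in late scar. Fits to 1 pig hold 1 biopsy in each mid and late group, so no p-value is read from them here or below. Median centring gave 0.29 in late scar (adjusted p = 0.449), and a local background without a cap gave 0.89 in mid (adjusted p = 0.11) and 0.68 in late scar (adjusted p = 0.212). Without the 2 dimmest late biopsies the late difference was 0.92 (adjusted p = 0.0557).

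The difference between the ligands within an array was also compared, since both probes share each array's labelling. TGFB3 minus TGFB1 averaged 2.23 ± 0.61 (SD, n = 4) in control skin, 2.90 ± 0.44 (SD, n = 8) in early scar, 2.18 ± 0.61 (SD, n = 8) in mid scar and 2.23 ± 0.79 (SD, n = 8) in late scar. The early value was 0.67 higher than control by an exact two-sided permutation test with p = 0.0485, which did not pass after adjustment over the 3 phases (adjusted p = 0.145). In mid and late scar the shift was -0.05 and -0.00 (exact permutation p = 0.921 and 0.998).

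ENG, the co-receptor, was higher than in control skin in every phase, at about 2-fold. Control values were -0.93, -0.79, -1.25 and -0.36. Early scar ran from -0.10 to 0.68 with a median of 0.25, above all control values. Mid scar ran from -0.58 to 0.53 with a median of 0.15 and late scar from -0.55 to 0.70 with a median of 0.05; both reached below the highest control biopsy, the right side of pig 50. ENG rose by 1.08 ± 0.23 log2 units in early scar (2.11-fold, limma adjusted p = 9.83e-04), by 0.88 ± 0.23 in mid scar (1.84-fold, adjusted p = 0.00639) and by 0.92 ± 0.23 in late scar (1.90-fold, adjusted p = 0.0035). With pig 50 alone, the rise was 0.95 in early scar and 0.93 in mid scar. Median centring gave 0.41 in mid (adjusted p = 0.18) and 0.10 in late scar (adjusted p = 0.738), so the rises of ENG and TGFB1 after early scar depended on this choice.

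CTGF, the matrix-associated target of TGF-beta, had the largest estimated early rise of the 4 genes and was the only one of them that did not pass in mid or late scar. Its control values were 0.79, 1.58, 0.27 and 1.24. Early scar ran from 2.79 to 4.26 with a median of 3.65, more than 1 log2 unit above the highest control. Mid scar ran from 0.42 to 3.16 with a median of 1.98 and late scar from 0.38 to 2.94 with a median of 1.78, and both covered most of the control range. CTGF rose by 2.58 ± 0.46 log2 units in early scar (5.98-fold, limma adjusted p = 1.89e-04). Its difference from control was 0.99 ± 0.46 in mid scar (adjusted p = 0.103) and 0.70 ± 0.46 in late scar (adjusted p = 0.236), and neither passed. Leaving out the mid pressure hypo biopsy of the right side of pig 50 brought the mid difference to 1.28 and past the threshold (adjusted p = 0.0308), and leaving out the 3 biopsies high in muscle markers to 1.17 (adjusted p = 0.029). Pig 50 alone gave a late difference of 1.64.

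**Figure D1:**
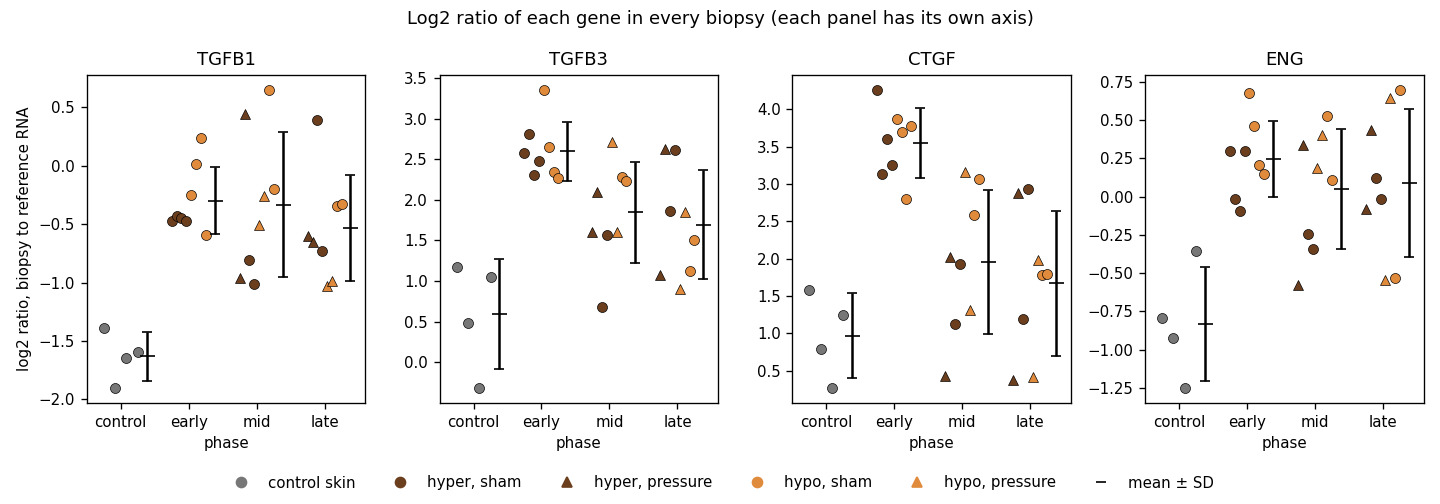
The log2 ratio of biopsy to reference RNA is plotted for TGFB1, TGFB3, CTGF and ENG in all 28 biopsies by phase, with colour for pigmentation, shape for treatment and bars for the mean ± SD of each phase. TGFB1 lies above its highest control value of -1.39 in every scar biopsy, whereas CTGF clears control only in early scar, where its lowest value is 2.79.

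COL1A2 likewise passed in early scar only. It ran from 1.35 to 3.80 in control skin and from 4.41 to 7.25 in early scar, without overlap. It rose by 3.38 ± 0.66 log2 units in early scar (10.4-fold, limma adjusted p = 4.61e-04), and its differences of 1.55 ± 0.66 in mid scar (adjusted p = 0.0748) and 1.41 ± 0.66 in late scar (adjusted p = 0.096) did not pass.

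All 4 genes passed in early scar, where 38.9% of all features did. In mid scar 3 of 4 passed against 33.8% of all features, and in late scar 3 of 4 against 39.7%. All early biopsies lay above all controls for 4 of 4 genes, a pattern that 15.8% of all features showed. In mid scar this held for 1 of 4 genes (7.3% of features) and in late scar for 1 of 4 (9.78%), TGFB1 in both. The 3 phases were compared with the same 4 control biopsies, so they are not independent of each other. Arrays lay 4 to a slide, and within the slides that held both scar and control every difference for these genes was above 0. For early scar, and for TGFB1 in each phase, that sign follows from the lack of overlap with control and adds nothing to it. The differences within slides ran from 1.36 to 1.43 for TGFB1 in early scar on 2 slides, 1.99 to 2.77 for TGFB3, 2.46 to 3.47 for CTGF and 1.23 to 1.56 for ENG. In late scar, on 3 slides, they ran from 0.92 to 1.14 for TGFB1, but from 0.02 to 1.39 for TGFB3, 0.04 to 1.57 for ENG and 0.11 to 1.20 for CTGF. The scar response, pooled over the 3 phases, did not pass a test of a difference between the pigs for any of the 4 genes (limma interaction, 0 of 4 at unadjusted p below 0.05), nor for any feature (0%, with 260 features at unadjusted p below 0.05). Pig differences of opposite direction in early and late scar cancel in it. CTGF averaged 3.74 in pig 49 and 3.35 in pig 50 in early scar, but 0.94 and 2.40 in late scar. TGFB3 averaged 2.85 and 2.35, then 1.24 and 2.15, and ENG 0.36 and 0.14, then -0.26 and 0.44. TGFB1 was lower in pig 50 in both phases. Pig differences within a phase were not tested.

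Changes between scar phases were tested in sham biopsies, since early scar received no pressure. CTGF fell by 1.62 ± 0.46 log2 units from early to late sham scar (3.08-fold lower, limma adjusted p = 0.0187), and COL1A2 fell by 1.89 ± 0.66 (3.70-fold lower, adjusted p = 0.0491). CTGF was between 2.79 and 4.26 in the 8 early biopsies, against 1.19, 2.94, 1.78 and 1.79 in late sham scar, so only the late hyper biopsy of pig 50 reached into the early range. TGFB3 differed by -0.82 ± 0.32 (adjusted p = 0.0749), TGFB1 by 0.05 ± 0.23 (95% interval -0.43 to 0.53) and ENG by -0.18 ± 0.23 (95% interval -0.66 to 0.30). Thus 1 of 4 genes passed where 19.9% of all features did. The CTGF call was lost without the late sham hyper biopsy of pig 49 (-1.24, adjusted p = 0.108), without the late sham hypo biopsy of pig 50 (-1.54, adjusted p = 0.0697) and without the 2 dimmest late biopsies (-1.57, adjusted p = 0.0636). It was also lost with an uncapped local background (-1.15, adjusted p = 0.373), and pig 50 alone gave -0.99. Without the 3 biopsies high in muscle markers TGFB3 passed too (-0.87, adjusted p = 0.0459), and under median centring TGFB3 (-1.49, adjusted p = 7.19e-04) and ENG (-0.86, adjusted p = 0.00647) did. TGFB3 passed as well with slide as a fixed block (-1.52, adjusted p = 0.0185). Pig 49 alone gave -1.35 for TGFB3 and -0.56 for ENG.

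From early to mid sham scar none of the 4 genes passed, where 6.44% of all features did. CTGF differed by -1.37 ± 0.46 (limma adjusted p = 0.0763) and TGFB3 by -0.91 ± 0.32 (adjusted p = 0.0939), both at unadjusted p below 0.05, while TGFB1 differed by -0.04 ± 0.23 and ENG by -0.23 ± 0.23. COL1A2 fell by 2.39 ± 0.66 (adjusted p = 0.0365). CTGF passed without the early sham hypo biopsy of the left side of pig 50 (-1.53, adjusted p = 0.0463), and also without either late pressure hyper biopsy (-1.37, adjusted p = 0.0486 and 0.0487), which enter only the shared spread. Without the 3 biopsies high in muscle markers it was -1.51 (adjusted p = 0.0208), and under median centring CTGF (-1.60, adjusted p = 0.0406) and TGFB3 (-1.13, adjusted p = 0.0249) both passed. CTGF also passed with Cy5 alone (-1.46, adjusted p = 0.0328). In pig 49 alone the differences were -1.89 for CTGF and -1.36 for TGFB3.

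Between late and mid scar, over all treatments, the differences were -0.20 for TGFB1, -0.15 for TGFB3, -0.28 for CTGF and 0.04 for ENG. None passed (limma, 0 of 4 also at unadjusted p below 0.05), against 0.00533% of all features. The 95% intervals ran from -0.59 to 0.19 for TGFB1, from -0.70 to 0.39 for TGFB3, from -1.07 to 0.50 for CTGF and from -0.35 to 0.43 for ENG.

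**Figure D2:**
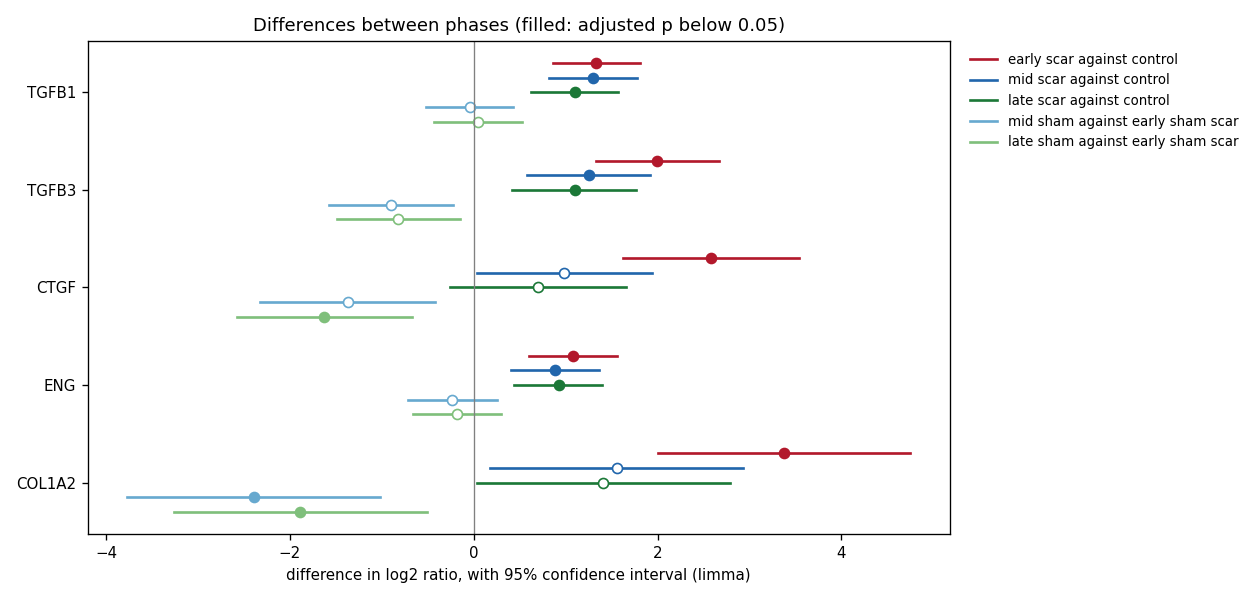
Differences in log2 ratio with their 95% confidence intervals from limma are plotted for the 4 genes and COL1A2 in 5 comparisons, with filled points for adjusted p below 0.05. TGFB1 and ENG sit at 0.88 to 1.33 above control in all 3 phases and near 0 between phases, whereas CTGF and COL1A2 fall back after early scar.

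Pigmentation was compared as hyper minus hypo within each phase. In early scar the differences were small against their errors: -0.31 ± 0.26 for TGFB1, -0.11 ± 0.37 for TGFB3, 0.02 ± 0.53 for CTGF and -0.25 ± 0.27 for ENG. None passed (limma, 0 of 4 at unadjusted p below 0.05) and 0% of all features passed, with 871 of them at unadjusted p below 0.05.

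In mid scar all 4 genes had lower means in hyper than in hypo biopsies. CTGF read 0.42, 1.12, 2.03 and 1.93 in the hyper biopsies and 2.59, 3.16, 1.31 and 3.06 in the hypo biopsies, overlapping through the pressure pair of pig 50. TGFB3 read 1.61, 0.68, 2.10 and 1.56 in hyper and 2.28, 2.71, 1.61 and 2.24 in hypo biopsies, again with overlap from that pair. The differences were -1.16 ± 0.53 for CTGF, -0.72 ± 0.37 for TGFB3, -0.51 ± 0.27 for ENG and -0.51 ± 0.26 for TGFB1, and none passed (limma adjusted p = 0.524 to 0.551, 0% of all features, with 1 of 4 genes, CTGF, and 1765 features at unadjusted p below 0.05). In pig 49 alone, with 1 biopsy in each mid group, the differences were -2.10 for CTGF, -1.35 for TGFB3, -0.96 for TGFB1 and -0.76 for ENG. Of the 2 mid hyper biopsies of pig 49, 1 is high in muscle markers.

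In late scar the means pointed the other way for TGFB3. It read 1.86, 1.07, 2.61 and 2.63 in hyper biopsies and 0.90, 1.13, 1.50 and 1.85 in hypo biopsies, with the groups overlapping. Within each pig and side the hyper biopsy was the higher of the pair, by 0.73, 0.17, 1.10 and 0.78. The difference of 0.70 ± 0.37 did not pass (limma adjusted p = 0.29), nor did those of TGFB1 (0.27 ± 0.26), CTGF (0.35 ± 0.53) and ENG (0.05 ± 0.27), where 5.02% of all features passed. Under median centring the TGFB3 difference was 1.40 and passed (adjusted p = 0.0146). The change in the hyper to hypo difference from early to late scar was 0.81 ± 0.53 for TGFB3, 0.58 ± 0.37 for TGFB1, 0.33 ± 0.75 for CTGF and 0.30 ± 0.38 for ENG. Of these 0 of 4 passed by limma, where 4.84% of all features did, and none had an unadjusted p below 0.05. TGFB3 passed under median centring (1.68, adjusted p = 0.0457), and ENG gave 0.99 in pig 49 alone.

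The change from mid to late scar was added after these values were seen. It was 1.42 ± 0.53 for TGFB3 (adjusted p = 0.102), 1.51 ± 0.75 for CTGF (adjusted p = 0.224), 0.78 ± 0.37 for TGFB1 (adjusted p = 0.206) and 0.56 ± 0.38 for ENG (adjusted p = 0.381). None passed by limma, where 7.62% of all features did, and TGFB1 and TGFB3 had an unadjusted p below 0.05. TGFB3 passed without the mid pressure hypo biopsy of pig 50 (1.73, adjusted p = 0.0452) or the late pressure hyper biopsy of pig 49 (1.82, adjusted p = 0.0391), the latter high in muscle markers, and TGFB1 passed without the mid pressure hyper biopsy of pig 50 (1.17, adjusted p = 0.0175). Median centring gave calls for TGFB3 (2.25, adjusted p = 0.0179) and ENG (1.39, adjusted p = 0.0306). In pig 49 alone the change was 1.54 for TGFB1, 1.80 for TGFB3, 1.80 for CTGF and 1.33 for ENG.

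Over all phases, hyper and hypo biopsies form 12 pairs from the same pig, side and phase. The mean hyper minus hypo difference was -0.18 ± 0.66 (SD, n = 12 pairs) for TGFB1, higher in hyper in 5 pairs, and -0.04 ± 0.83 for TGFB3, higher in 7. It was -0.26 ± 1.15 for CTGF, higher in 5 pairs, and -0.24 ± 0.47 for ENG, higher in 3. Exact two-sided sign-flip permutation tests gave adjusted p = 0.418 for ENG and 0.622 to 0.855 for the others.

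**Figure D3:**
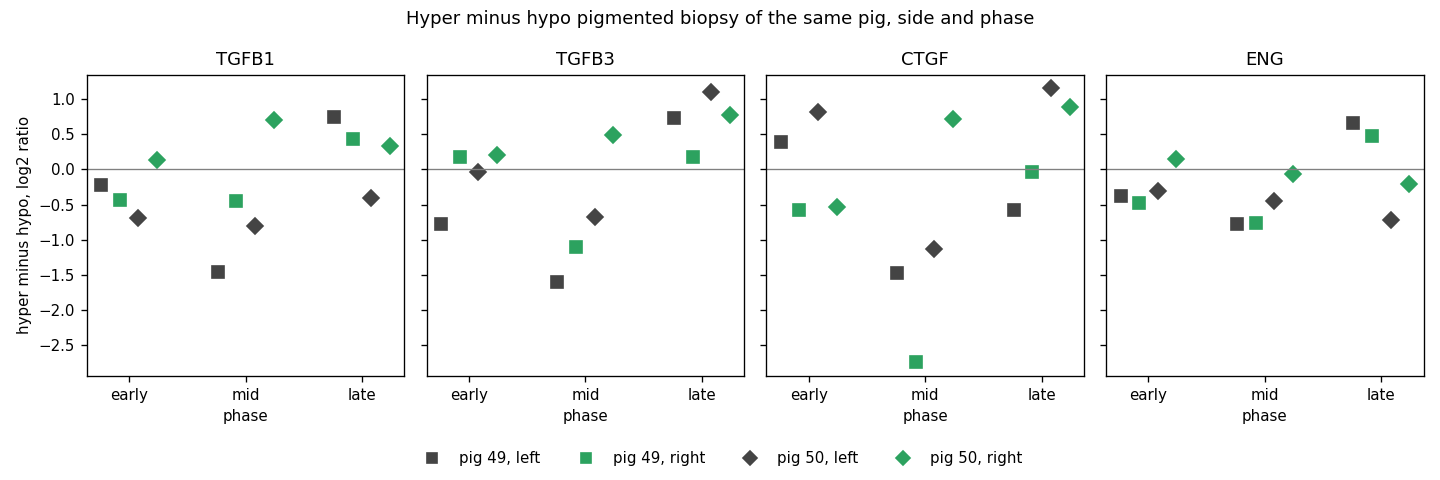
Each point is the hyper minus hypo difference in log2 ratio between biopsies of one pig, side and phase, for TGFB1, TGFB3, CTGF and ENG. In mid scar 3 of 4 pairs lie below 0 for TGFB1, TGFB3 and CTGF and all 4 for ENG, down to -2.74 for CTGF, and in late scar all 4 TGFB3 pairs lie above 0.

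Pressure-treated scar did not pass a test against sham-treated scar for any of the 4 genes. In mid scar the differences were 0.02 ± 0.26 for TGFB1, 0.32 ± 0.37 for TGFB3, -0.44 ± 0.53 for CTGF and 0.07 ± 0.27 for ENG (limma adjusted p = 0.999 for each, 0% of all features, 0 of 4 genes and 848 features at unadjusted p below 0.05). The 95% intervals ran from -0.53 to 0.57 for TGFB1, from -0.46 to 1.09 for TGFB3, from -1.55 to 0.66 for CTGF and from -0.48 to 0.63 for ENG. A rise of about 2-fold in TGFB3 and a fall of more than 2-fold in CTGF thus lay within what these biopsies could not tell.

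In late scar TGFB1 read -0.60, -0.65, -1.03 and -0.99 under pressure and 0.39, -0.73, -0.35 and -0.32 under sham. The sham hyper biopsy of pig 50 lay inside the pressure range and the other 3 sham biopsies above it. The difference was -0.57 ± 0.26 (95% interval -1.11 to -0.02), with an unadjusted p below 0.05 but an adjusted p = 0.873 by limma. TGFB3 differed by -0.16 ± 0.37, CTGF by -0.51 ± 0.53 and ENG by 0.05 ± 0.27, and 0% of all features passed, with 1055 at unadjusted p below 0.05. Macrophage markers in those biopsies are given further on.

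Pressure effects were also set against each other. The change of the pressure effect from mid to late scar was -0.59 ± 0.37 for TGFB1, and between -0.48 and -0.03 for the other 3 genes (limma, 0 of 4 passed, 0% of all features, 0 of 4 genes and 872 features at unadjusted p below 0.05). The pressure effect in hyper minus that in hypo scar was 0.74 ± 0.37 for TGFB1, 0.20 ± 0.53 for TGFB3, 0.21 ± 0.75 for CTGF and 0.18 ± 0.38 for ENG (0 of 4 passed, 0% of all features, 0 of 4 genes and 3495 features at unadjusted p below 0.05). TGFB1 passed without the mid pressure hyper biopsy of pig 49 (1.13, adjusted p = 0.0432), which is high in muscle markers, and without all 3 such biopsies (1.18, adjusted p = 0.0444). Since side and pressure coincide in mid and late scar, right and left were compared in early scar, which had both sides without pressure. Right minus left was -0.14 for TGFB1, -0.09 for TGFB3, -0.17 for CTGF and -0.05 for ENG, with exact two-sided permutation adjusted p = 0.857 for each of them.

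Across the 24 scar biopsies, CTGF and TGFB3 varied with COL1A2, while the relations of ENG and TGFB1 with it did not pass. CTGF had Pearson r = 0.75 (permutation p = 8e-05, adjusted over 16 relations 6.4e-04) and Spearman rho = 0.77 (adjusted p = 8e-04) with COL1A2. TGFB3 had r = 0.73 (adjusted permutation p = 6.4e-04) and rho = 0.69 (adjusted p = 0.00256). For this and the later relations the shuffles took all biopsies of a set as exchangeable, although they share pigs, slides and, over all 24, phases. These p-values are thus likely too small. Without the 2 biopsies farthest from the median of COL1A2, r was 0.77 for CTGF and 0.78 for TGFB3. ENG gave r = 0.47 (adjusted permutation p = 0.077) and rho = 0.47, and TGFB1 r = -0.02 (adjusted permutation p = 0.976) and rho = 0.13. Under median centring ENG had r = 0.69 with COL1A2 and passed (adjusted permutation p = 0.00176). In residuals from a fit with group, animal and slide, neither relation that passed above did so: r was 0.57 for CTGF (adjusted permutation p = 0.052) and 0.52 for TGFB3 (adjusted p = 0.0746). Shuffling treats these residuals as independent although the fit ties those of a group to each other, so such p-values are likely too small.

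Early scar was high in COL1A2, CTGF and TGFB3 alike, so the same relations were taken within phases of 8 biopsies. For CTGF r was 0.37 in early, 0.14 in mid and 0.87 in late scar, and the late value passed (exact permutation, adjusted p = 0.0369; rho = 0.93, adjusted p = 0.0119). For TGFB3 r was 0.53, 0.32 and 0.77, with an adjusted exact permutation p = 0.108 in late scar. Without the 2 biopsies farthest in COL1A2 the late r was 0.29 for TGFB3 and 0.66 for CTGF, and the early r 0.28 and 0.19. In mid scar it moved the other way, to 0.84 for TGFB3 and 0.62 for CTGF. There ENG went from 0.16 to 0.77 and TGFB1 from 0.00 to 0.71. Values within a phase thus depend on 2 biopsies. In late scar the pigs lay apart. COL1A2 ran from 2.67 to 3.43 in pig 49 and from 4.26 to 6.20 in pig 50, and CTGF from 0.38 to 1.78 and from 1.79 to 2.94, with no overlap, so the late relation spans that difference between the pigs. After the means of group and animal were subtracted, r over all scar biopsies was 0.59 for CTGF, 0.62 for TGFB3, 0.38 for ENG and -0.36 for TGFB1. That fit takes the same pig difference in every phase, so it does not remove the gap between the pigs in late scar. Among late biopsies r of these residuals was 0.84 for CTGF and 0.89 for TGFB3. Within pig 49 (12 scar biopsies) r was 0.82 for CTGF and 0.78 for TGFB3, and within pig 50 (12 scar biopsies) 0.48 and 0.61. Slides of 4 arrays are too small for a value within a single slide.

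**Figure D4:**
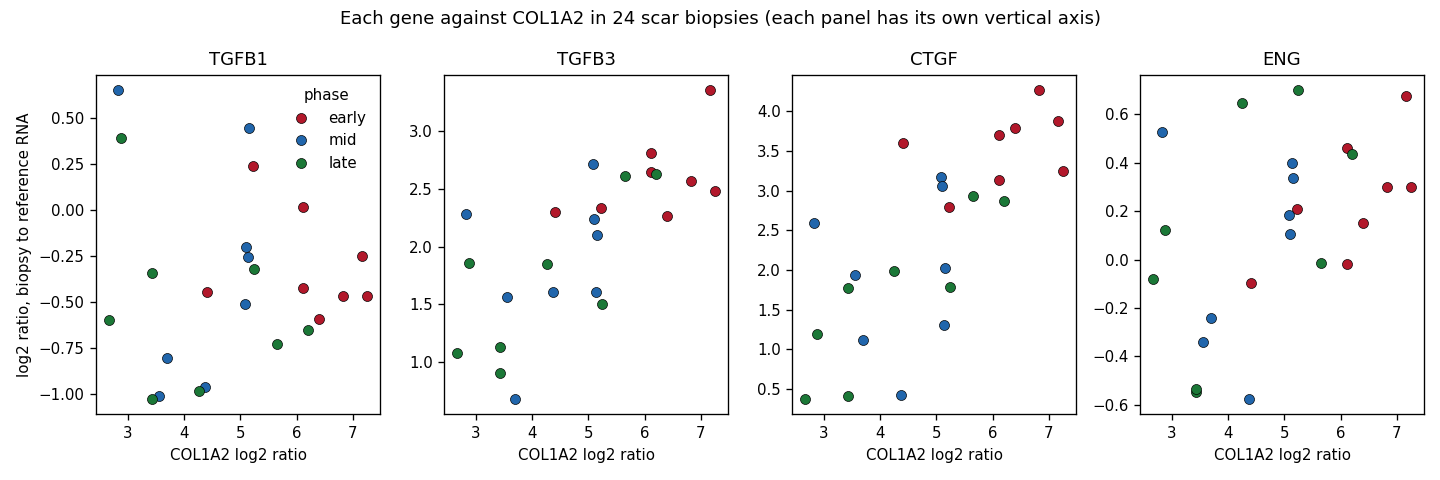
The log2 ratio of each gene is plotted against that of COL1A2 in the 24 scar biopsies, coloured by phase. CTGF and TGFB3 climb with COL1A2 (r = 0.75 and 0.73), with early scar at the upper right, while TGFB1 shows no slope (r = -0.02).

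Between the genes themselves, TGFB3 and CTGF were the closest pair across the 24 scar biopsies (r = 0.85). TGFB3 and ENG had r = 0.55, CTGF and ENG 0.48, and TGFB1 had 0.45 with ENG, 0.31 with TGFB3 and 0.22 with CTGF. These are descriptions, since the biopsies share pigs and phases. Over 2421 named genes, those most like TGFB3 were VCAN (r = 0.91) and ACAN (r = 0.89), which encode large proteoglycans, and PMEPA1 (r = 0.87), a TGF-beta-induced inhibitor of SMAD signalling. Among those most like CTGF were CDH11 (r = 0.89), a cadherin of mesenchymal cells, and CNPY2 (r = 0.88). COL1A2 ranked 137 for CTGF and 114 for TGFB3 in this order. The genes most like TGFB1 were TMEM251 (r = 0.90), CYBA (r = 0.88), a subunit of the phagocyte oxidase, and SLA-DMB (r = 0.88), which helps load peptides onto class II molecules; COL1A2 ranked 1194. For ENG the closest were XCR1 (r = 0.77), a chemokine receptor, FKBP1A (r = 0.76) and DNAJC3 (r = 0.76), a lower likeness than for the others.

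Macrophage markers were set beside the genes after the values were seen. The mean of the 6 measured markers (CD163, CD14, C1QA, C1QB, C1QC and AIF1, on a median-centred log2 scale) ran from -1.16 to -0.37 in control skin, from -0.18 to 1.08 in early, from -0.61 to 1.19 in mid and from -0.95 to 1.07 in late scar. Of these markers 5 of 6 were higher than control in early scar, 4 of 6 in mid and 1 of 6 in late scar, against 24.1%, 22.1% and 26.3% of all features. TGFB1 varied with this mean over the 24 scar biopsies with r = 0.84 (permutation p = 1e-05, the smallest that 100000 resamples can give; adjusted p = 1.6e-04) and rho = 0.76 (adjusted p = 9.6e-04). As for COL1A2, the shuffles ignored that biopsies share pigs and phases, so these p-values are likely too small. Within phases r was 0.90 in early, 0.83 in mid and 0.86 in late scar (exact permutation, adjusted p = 0.0278, 0.0495 and 0.047). Without the 2 biopsies farthest from the median of the markers, r was 0.80 over all scar biopsies, but 0.47, 0.38 and 0.53 within the phases, so the values within a phase rest largely on those biopsies. It was 0.90 in pig 49 and 0.75 in pig 50, and 0.78 after the means of group and animal were subtracted.

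TGFB3 (r = 0.44, adjusted permutation p = 0.0827), ENG (r = 0.41, adjusted p = 0.103) and CTGF (r = 0.34, adjusted p = 0.164) gave lower values with the macrophage mean and did not pass, although under median centring all did (r = 0.74, 0.81 and 0.59). In the residuals that also remove slide, r was 0.84 for TGFB1 and 0.59 for ENG. No call is read there, since the fit ties the residuals of a group to each other. In the late biopsies compared above for TGFB1, the macrophage mean was -0.06, 0.30, -0.95 and -0.09 under pressure and 1.07, -0.30, 0.55 and 0.01 under sham. The part of macrophages in the TGFB1 values was not tested.

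**Figure D5:**
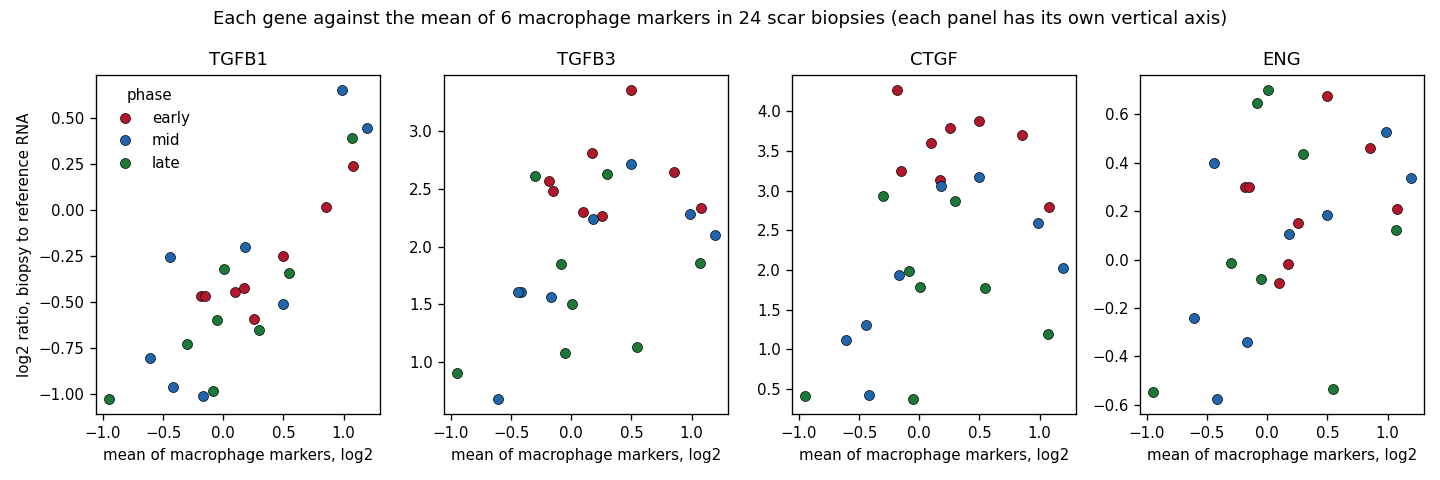
The log2 ratio of each gene is plotted against the mean of 6 macrophage markers in the 24 scar biopsies, coloured by phase. TGFB1 climbs with the markers in each phase (r = 0.84 over all 24), with 5 biopsies at the upper right, while CTGF is spread widely at every marker level (r = 0.34).

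Endothelial markers were compared because endothelial cells make endoglin. Of 6 measured markers 5 were higher than control in early scar, 5 in mid and 6 in late scar, with median differences of 0.96, 1.45 and 1.44. Among all features 24.1%, 22.1% and 26.3% were higher in these phases. The mean of PECAM1, VWF and CDH5 ran from -1.92 to -0.73 in control skin, from -0.62 to 0.26 in early, from -0.14 to 0.90 in mid and from -0.21 to 1.46 in late scar. Across the 24 scar biopsies ENG had r = 0.23 with this mean (permutation p = 0.279, adjusted p = 0.558; rho = 0.19), with 0.22 in early, 0.03 in mid and 0.64 in late scar, and -0.39 in pig 49 against 0.55 in pig 50. Under median centring r was 0.63 (adjusted permutation p = 0.02). In the residuals that also remove slide ENG had r = 0.59 and rho = 0.56, and no call is read there, for the reason given above. TGFB1, TGFB3 and CTGF gave r = -0.29, -0.23 and -0.25, each with an adjusted permutation p = 0.558. The direction for TGFB3 turned in those residuals, to r = 0.52 (rho = 0.51), again with no call read. Fibroblast markers, which include COL1A2 and the listed gene DCN, were higher in 4 of 4 measured in early, 2 of 4 in mid and 1 of 4 in late scar, and their mean ran from -2.22 to -0.75 in control skin and from 0.20 to 1.40 in early scar. The part of endothelial cells and fibroblasts in the 4 genes' values was not tested.

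The rest of the pathway was counted over a list of 71 genes, of which 33 were measured, COL1A2 among them. In early scar 8 were higher and 5 lower than control, with a median difference of -0.10 against 0.11 over all features. These are 24.2% and 15.2% of the list, next to 24.1% higher and 14.8% lower among all features, so the counts lie near the background and say nothing particular about the list. Among activators of latent TGF-beta, THBS1 (thrombospondin 1) rose by 1.94 ± 0.44 (limma adjusted p = 0.00154), ITGAV (integrin alpha V) by 1.42 ± 0.24 (adjusted p = 1.32e-04) and its partner ITGB5 by 0.77 ± 0.29 (adjusted p = 0.0399), although the dimmer ITGB5 probe gave -0.06 and 5 ITGAV probes ran from 0.26 to 1.42. Among the receptors, TGFBR1 differed by 0.49 ± 0.19 (adjusted p = 0.0505) and TGFBR3 by -0.01 ± 0.16. Of the signal carriers SMAD4 rose by 0.41 ± 0.13 (adjusted p = 0.013), although its other probes gave 0.15 to 0.30. SMAD3 differed by 0.36 ± 0.20 (adjusted p = 0.166).

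Inhibitors moved both ways in early scar. SMAD7, the inhibitory SMAD that TGF-beta induces, fell by 0.84 ± 0.20 (limma adjusted p = 0.00226), while PMEPA1 rose by 1.82 ± 0.26 (adjusted p = 2.36e-05) and DCN, the TGF-beta-binding proteoglycan decorin, by 2.51 ± 0.40 (adjusted p = 7.1e-05). LOX, which cross-links collagen, rose by 2.18 ± 0.43 (adjusted p = 5.32e-04). The target ACTA2 (-0.79 ± 0.51), the smooth muscle actin of myofibroblasts, did not pass. The related ligands BMP2 (fell by 1.24 ± 0.18), BMP4 (fell by 1.37 ± 0.15) and BMP7 (fell by 1.16 ± 0.23) were lower, as was the BMP target ID2 (fell by 1.44 ± 0.45, adjusted p = 0.014). BMP4 was well above background on 4 of 4 control arrays and on 0 of 8 early arrays, and was at least 2.41-fold lower in early scar against the lowest signal still above background. Without control skin BMP4 would not have met the filter of at least 4 arrays, so its lower calls are partly fixed by that filter.

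In mid scar 2 listed genes were higher, ITGAV (0.76 ± 0.24, limma adjusted p = 0.0215) and PMEPA1 (0.98 ± 0.26, adjusted p = 0.00766), and in late scar none was, where 22.1% and 26.3% of all features were higher. The other ITGAV probes gave only 0.13 to 0.33 in mid scar, so that call rests on the brightest probe. The same 5 genes were lower in mid and late scar: BMP2, BMP4, BMP7, SMAD7 and SMAD1, the last by -0.44 ± 0.15 (adjusted p = 0.0288) and -0.41 ± 0.15 (adjusted p = 0.0375). They make up 15.2% of the list, against 11.7% of all features lower in mid and 13.4% in late scar. BMP4 was well above background on 1 of 8 mid and 1 of 8 late arrays, so most of its scar values lay near the floor there too. In late against early sham scar 6 listed genes fell (THBS1, ITGAV, PMEPA1, DCN, LOX and COL1A2) and 4 rose (BMPR1B, INHBA, ID2 and ID3), which is 18.2% and 12.1% of the list against 10.3% and 9.63% of all features. No listed gene passed for pigmentation or pressure by limma. Of all features 0% passed for pigmentation in early and mid scar and for pressure in mid and late scar, so none of the list could. For pigmentation in late scar 5.02% of all features passed, so a count of 0 says little about the list.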

How the data were processed

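RNA from 28 skin biopsies of 2 pigs was hybridised to 28 2-colour Agilent arrays, 4 to a slide. The authors deposited, per the file headers and the submitters' processing notes, scanner output of Agilent Feature Extraction 10.7.1.1 with spot and local background intensity in both channels, and a value table of log2 ratios. The deposited table equals the log2 ratio of the program's processed Cy5 to Cy3 signal within 0.001 for 99.97% to 99.99% of probes, so its direction is biopsy over reference; it was not centred further.

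Here, median spot intensity was background-corrected (normexp, offset 50, local background held to at most the 99th percentile per array and channel, since single spots reached 649958), normalized by loess within arrays, and cleared of scanner outlier flags (0.53% of values missing, none for the 4 genes). Probes well above background in Cy5 on at least 4 arrays were kept (24513), and the brightest probe stood for a gene. The number of arrays, not read depth, limits the precision. Genes were named through RefSeq accessions in the given gene tables.

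All arrays entered 1 limma fit (limma 3.58.1, R 4.3.3) that estimated 11 group means and took the animal as a block, the pairing being that biopsies of the same pig carry its number in the labels. Comparisons were two-sided with Benjamini-Hochberg adjustment over 18768 features and a threshold of 0.05. The procedure was tested on simulated data. Exact permutation tests and relations used SciPy 1.17.1, with 100000 resamples over 24 biopsies. Shuffles over 24 biopsies were not restricted within pig, phase or slide.

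The 4 genes, the pathway and marker lists and the tests were chosen with earlier results of these data known. The text names the 4 genes, COL1A2, listed pathway genes past the threshold in a scar phase, and the 3 genes most like each of the 4, except 1 gene that is not reported here. TGFBR1, TGFBR3, SMAD3, ACTA2, and the pathway genes past the threshold only between sham phases, were named after their values were seen. The macrophage relation, the mid to late change in pigmentation difference, and the fits with equal spread between arrays, with Cy5 alone, with the dimmer probes, without the 3 biopsies high in muscle markers and without the 2 dimmest late biopsies were also added then. None of the red blood cell markers was measured. Alternatives are given in the closing section.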

Additional observations from a re-analysis of the deposited data

Results flagged for a closer look

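The CTGF log2 ratio of 2.79 in the early sham hypo biopsy from the left side of pig 50 stood below the other 3 of its group, which read 3.70, 3.78 and 3.87. Its gap to the nearest of them was 0.836 of the group's range, just past the 95% limit of 0.829 for 4 samples. There were 12 groups tested in this way, and chance flags about 1 group in 20. This biopsy is one of the 3 high in skeletal muscle markers (mean 3.47), and the part of muscle in the value was not tested.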

How the results depend on the processing

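Across 17 other settings, 962 of 1006 differences of the 4 genes kept their direction where called and their side of the threshold, 16 lost the call, 28 gained one and 0 reversed. Leaving out 1 array in turn, 1668 of 1680 did, 4 lost the call and 8 gained one. A change of sign of a difference that passed in neither setting was not counted as a reversal. Most of these differences were not called in the main fit. Calls there were 4 in early, 3 in mid and 3 in late scar against control and 1 in late against early sham scar. Thus most of the unchanged values only stayed without a call. The counts include the fits to 1 pig. No setting fitted to both pigs ended an early rise, and pig 50 alone gave 0.95 for ENG. Median centring in place of loess moved the median of all features by up to about 0.20 (late scar, 0.10 to -0.10; early, 0.11 to 0.02; mid, 0.10 to -0.04). It ended the mid rises of TGFB1 (0.83, adjusted p = 0.0729) and ENG (0.41) and the late rises of TGFB1 (0.28), TGFB3 (0.29) and ENG (0.10). It brought past the threshold late against early sham scar for TGFB3 (-1.49) and ENG (-0.86), mid against early for TGFB3 (-1.13) and CTGF (-1.60), hyper against hypo late scar for TGFB3 (1.40), its change from early to late (1.68) and from mid to late (2.25), and that of ENG (1.39). It also brought past it the relations of ENG with COL1A2 (r = 0.69), the endothelial mean (r = 0.63) and the macrophage mean (r = 0.81), and those of TGFB3 (r = 0.74) and CTGF (r = 0.59) with the macrophage mean. The cause was not tested. Uncapped backgrounds ended the TGFB3 calls in mid (0.89) and late scar (0.68) and the CTGF fall from early to late (-1.15), and the dimmer probe the TGFB3 calls (0.58 and 0.49). Slide as a fixed block gave -1.52, past the threshold, for TGFB3 in late against early sham scar. In residuals from that fit the COL1A2 relations of TGFB3 (r = 0.52) and CTGF (r = 0.57) no longer passed. ENG had r = 0.59 with the endothelial and with the macrophage mean, and TGFB3 turned from r = -0.23 to r = 0.52 with the endothelial mean. No call is read for these means, since the fit ties the residuals of a group to each other. Fits to 1 pig hold 1 biopsy in each mid and late group, so only their effect sizes are given. Pig 49 alone gave 0.41 for TGFB3 in late scar. In late against early sham scar it gave TGFB3 -1.35 and ENG -0.56, and in mid against early TGFB3 -1.36 and CTGF -1.89. For hyper against hypo mid scar it gave TGFB1 -0.96, TGFB3 -1.35, CTGF -2.10 and ENG -0.76. The pigmentation difference changed there by 0.99 for ENG from early to late. From mid to late it changed by 1.54 for TGFB1, 1.80 for TGFB3, 1.80 for CTGF and 1.33 for ENG. Pig 50 alone gave 0.93 for ENG in mid scar, -0.99 for CTGF in late against early sham scar and 1.64 for CTGF in late scar. Without the 3 biopsies high in muscle markers CTGF passed in mid scar (1.17) and in mid against early (-1.51), TGFB3 in late against early (-0.87) and TGFB1 for pressure with pigmentation (1.18). Without the 2 dimmest late biopsies late TGFB3 (0.92) and the CTGF fall (-1.57) did not pass. Cy5 alone gave -1.46, past the threshold, for CTGF in mid against early.

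Leaving out 1 array, differences ran from 0.92 to 1.46 for TGFB3 in mid and 0.77 to 1.31 in late scar, 0.68 to 1.28 for CTGF in mid scar, -2.01 to -1.24 for CTGF in late and -1.53 to -1.22 in mid against early sham scar, 0.39 to 1.17 for TGFB1 and 1.02 to 1.82 for TGFB3 in the mid to late change of the pigmentation difference, and 0.35 to 1.13 for TGFB1 in the pressure effect with pigmentation. The count of all features called ranged widely. Without the control biopsy of the left side of pig 50 it was 5487 in early, 3902 in mid and 5356 in late scar. With all arrays it was 7293, 6335 and 7454. In late against early sham scar it ran from 11 with uncapped backgrounds to 5690 under median centring. In mid against early sham scar it was 2 with uncapped backgrounds. With no replicate block for the animal, TGFB1 in early scar stayed at 1.33 and no call of the 4 genes changed. Aquantile leaves log ratios as they are.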
